A study of Mus musculus with 2 samples.

Results

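Mitochondrial ribosomal proteins are the nucleus-encoded proteins of the mitoribosome, and 76 of the 15364 genes counted carry one of their names, Mrpl or Mrps with a number and at most 1 letter. All 76 reached the minimum of 20 counts over 640 cells, from 277 counts for Mrpl44 to 4946 for Mrps6. Of them, 49 belong to the large subunit, Mrps30 and Mrps18a included, and 26 to the small subunit. Mrps36 was kept apart because its product is now placed in the 2-oxoglutarate dehydrogenase complex.

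The cells are hippocampal neural stem cells of 6-week-old male mice of the strain C57BL6/J, grown as 4 cultures and sorted singly into 2 plates of 384 wells for SORT-seq. The activated culture grew with 20 ng/mL FGF2 and EGF and with heparin. The quiescent culture had FGF2 without EGF and 50 ng/mL BMP4, and cells counted as quiescent after 3 days of it. The 24 h and 48 h exit cultures had been quiescent and were then given activation medium with 0.5 ug/mL noggin, a BMP4 antagonist, for that time. Within each culture, cells were taken from 4 gates of punctate autofluorescence, named low, low-mid, mid-high and high. The labels do not say how many mice gave cells, and each state is 1 culture.

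Mitoribosomes sit in the mitochondrial matrix and translate only the mRNAs of the mitochondrial genome, which encode core subunits of the respiratory chain and of ATP synthase. Their ribosomal RNAs are made in the mitochondrion, while all their proteins are made in the cytosol and imported. Quiescent neural stem cells are known to use fatty acid oxidation, a mitochondrial pathway, and mitochondrial metabolism changes as these cells activate and differentiate.

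The per-cell table held 174 quiescent, 151 24 h exit, 151 48 h exit and 164 activated cells, with 32 to 46 cells for each gate of each culture, where the labels state 47 cells for a condition. Totals ran from 5013 to 97009 transcripts a cell, and no cell was shared between plates. Quiescent and 24 h exit cells shared 1 plate, and activated and 48 h exit cells the other. A difference between plates and a difference between states therefore cannot be told apart in any comparison other than these 2 pairs. All 7 neural stem cell markers were found in every culture, summing to 6716, 4716, 4374 and 6768 CPM (counts scaled to a total of 1000000) in the quiescent, both exit (24 h first) and activated cultures. Microglial and endothelial markers summed to at most 0.831 and 0.623 CPM, and neuronal markers to at most 8.84. Astrocyte markers, which neural stem cells share in part, summed to 673, 439, 126 and 112 CPM in the same order.

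Transcripts of the 76 genes made up the smallest share of all counts in the quiescent culture, 0.300% (95% Poisson interval 0.295 to 0.305). The share was 0.342% (0.336 to 0.349) at 24 h of exit, 0.423% (0.417 to 0.429) at 48 h and 0.500% (0.495 to 0.506) in the activated culture. These intervals cover counting error only, and with 1 culture per state no test between states was possible. Single cells followed the same order, with median shares of 0.297%, 0.342%, 0.429% and 0.502%. The lower quartile of activated cells, 0.450%, lay above the upper quartile of 24 h exit cells, 0.393%.

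A median quiescent cell held 81.5 member transcripts from 44 of the 76 genes. The medians were 65.0 transcripts from 39 genes at 24 h, 110 from 51 at 48 h and 177 from 63 in activated cells. After every cell was thinned to 12488 identifiers, leaving out 18, 29, 11 and 6 shallower cells, 28, 30, 36 and 38 of the 76 genes were seen in a median cell. Set against spike-in RNA instead of all counts, member counts per spike-in count were 0.230, 0.190, 0.370 and 0.594. On that scale the 24 h exit culture lay below the quiescent one, at 0.828 of its value, where its share of counts was 1.14-fold higher.

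**Figure D1:**
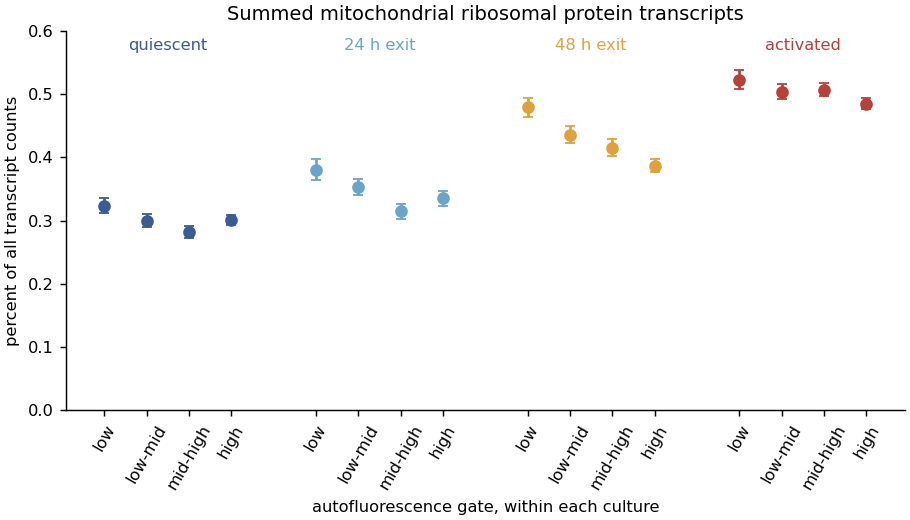
Summed transcripts of the 76 genes as a percent of all counts (vertical axis) in the autofluorescence gates of the cultures (horizontal axis), with 95% Poisson intervals as bars. Quiescent gates lie between 0.282% and 0.324% and activated gates between 0.485% and 0.523%, and at 48 h of exit the value is lower at each step from the low gate (0.479%) to the high gate (0.387%).

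The promoters of these genes are known for sites of NRF1, of ETS factors such as GABP, and of YY1, which are general regulators of nuclear genes for mitochondrial proteins. The first 120 bases upstream of the RefSeq start site are shown for 5 members (build GRCm38.p6, gene strand, 5′ to 3′), chosen after their values were seen. Mrpl12, Mrpl17 and Mrps27 had higher levels in the activated than in the quiescent culture, and Mrps21 and Mrps18a had close to equal levels. Capitals mark the match to the NRF1 motif (GCGCA, any base, GCGC, or its reverse complement) in the first 3 and to CCGGAAG or its reverse complement (ETS) in the other 2.
Mrpl12: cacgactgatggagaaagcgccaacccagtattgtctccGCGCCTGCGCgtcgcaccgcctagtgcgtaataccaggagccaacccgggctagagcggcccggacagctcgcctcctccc
Mrpl17: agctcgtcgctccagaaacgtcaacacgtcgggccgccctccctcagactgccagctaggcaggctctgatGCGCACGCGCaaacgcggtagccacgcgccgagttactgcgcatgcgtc
Mrps21: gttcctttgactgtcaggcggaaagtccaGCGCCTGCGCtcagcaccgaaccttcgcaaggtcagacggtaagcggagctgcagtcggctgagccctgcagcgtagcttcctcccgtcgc
Mrps27: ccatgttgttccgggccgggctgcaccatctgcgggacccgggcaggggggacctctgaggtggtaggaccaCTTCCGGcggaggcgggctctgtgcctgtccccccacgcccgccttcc
Mrps18a: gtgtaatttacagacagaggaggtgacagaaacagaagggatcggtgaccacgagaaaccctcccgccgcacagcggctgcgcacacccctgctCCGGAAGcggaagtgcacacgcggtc

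These windows are chr11:120484517-120484636 (plus strand), chr7:105811088-105811207 (minus), chr3:95871515-95871634 (minus), chr13:99344666-99344785 (plus) and chr17:46110884-46111003 (plus), in the order printed. The NRF1 match starts 81, 49 and 91 bases before the start site in Mrpl12, Mrpl17 and Mrps21, and the ETS match 48 and 26 bases before it in Mrps27 and Mrps18a. Because these promoters were chosen after their values were seen, they show where the letters lie and cannot relate a motif to a ratio. Medians of the matched members with and without each motif are given below.

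Promoters were found for 67 of the 76 members, each 300 bases long (250 before the start and 50 after), and searched on both strands. CCGGAAG was in 24 of 67 (35.8%), against 20.8% of 8711 measured genes and 9.93% of all 27025 promoters of the table. The YY1 letters AAGATGGCG were in 8 (11.9%), against 3.83% of measured genes and 1.64% of all. The NRF1 motif was in 12 (17.9%), against 12.2% and 5.19%, and its palindromic form in 3 (4.48%), against 2.54% and 1.07%. At least 1 of the NRF1, ETS and YY1 motifs was in 39 of 67 (58.2%), against 32.8% of measured genes. The E-box CACGTG was in 5 (7.46%), against 12.1%, and CCAAT in 27 (40.3%), against 43.7%. A match is a description of letters and not a measured binding site.

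The median log2 ratio of activated over quiescent was 0.68 for the 24 members with CCGGAAG and 0.48 for the 43 without. It was 0.49 and 0.55 for the 12 with and the 55 without the NRF1 motif, and 0.56 and 0.51 for the 8 with and the 59 without AAGATGGCG. Start sites of these genes often faced another gene: 32 of 76 (42.1%) had a head-to-head neighbour within 1000 bases in GENCODE, against 17.2% of 10582 measured genes. Mrpl46 and Mrps11 face each other, with starts 412 bases apart. Mrpl36 faces Ndufs6, a complex I subunit, at 29 bases, and Mrpl49 faces Fau, a cytosolic ribosomal protein gene, at 59.

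Between the activated and quiescent cultures, 69 of the 76 genes were higher in the activated culture, where 54.4% of 11559 measured genes were. Log2 ratios were taken of CPM with 10 added, and a gene was called past 1.5-fold on that scale. By this rule 33 members were called higher (43.4%), against 18.9% of all genes, and 0 lower, against 13.6%. The median log2 ratio was 0.54 for the members and 0.06 for all genes. In 52 members every gate of the activated culture lay above every gate of the quiescent culture, against 26.4% of all genes. The lower direction held 1 member, Mrpl10, against 20.5%. The summed counts differed 1.67-fold, and 2.58-fold per spike-in count. The 2 cultures were on different plates.

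Mrps6, a small-subunit protein with a bacterial homolog, had the highest level in the activated culture and the largest log2 ratio of activated over quiescent. In the other 3 cultures Mrpl42 was higher. Mrps6 measured 99.1 CPM (95% interval 90.4 to 108) in the quiescent culture, 158 (144 to 172) at 24 h, 189 (176 to 203) at 48 h and 489 (472 to 506) in the activated culture. The activated gates, from 398 to 594 CPM, lay far above the quiescent gates, from 72.5 to 125, and the log2 ratio was 2.19. The annotated exons of Mrps6 (chromosome 16, 92058270 to 92112227, plus strand) overlap those of Slc5a3, the sodium and myo-inositol cotransporter gene, on the same strand. Slc5a3 measured 29.1, 67, 76.2 and 331 CPM in the same order, so reads of the 2 genes cannot be told apart with certainty. Without Mrps6 the summed log2 ratio of activated over quiescent was 0.64 in place of 0.74.

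Mrps27, a small-subunit protein with pentatricopeptide repeats, followed Mrps6 with a log2 ratio of 1.35. It measured 22.2 CPM (18.2 to 26.8) in the quiescent culture, 23.3 (18.2 to 29.4) at 24 h, 72.7 (64.7 to 81.4) at 48 h and 72.1 (65.7 to 78.9) in the activated culture. The 2 cultures of a plate had close values, with log2 ratios of 0.05 and 0.01. Their intervals, also with 10 CPM added, were -0.26 to 0.36 and -0.18 to 0.20. The added 10 CPM makes these intervals narrower than those of the plain CPM ratio. The plates stood apart in every gate, from 14.8 to 31.9 CPM on 1 plate and from 61.4 to 89.2 on the other. Plate and state cannot be told apart for this gene.

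Mrpl12, the homolog of the bacterial L7/L12 stalk protein that also binds the mitochondrial RNA polymerase, measured 42.8 CPM (37.1 to 49), 54.5 (46.5 to 63.4), 100 (90.7 to 110) and 118 (110 to 127) in the quiescent, 24 h, 48 h and activated cultures. Its activated over quiescent log2 ratio was 1.28, and the activated gates (101 to 132 CPM) lay above the quiescent gates (38.9 to 53.9). Mrpl10 and Mrpl11, which form the base of that stalk, differed from it. Mrpl10 measured 62.7 CPM in the quiescent, 64.3 in the 24 h, 52.4 in the 48 h and 46.3 in the activated culture, a log2 ratio of -0.37 that was the lowest of the 76. Mrpl11 measured 22.8, 21.3, 23.3 and 30.8 CPM, with overlapping gates and a log2 ratio of 0.31.

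The 3 homologs of bacterial ribosomal protein S18 also had different patterns. Mrps18b measured 13.9 CPM (10.8 to 17.7) in the quiescent and 43.9 (39 to 49.3) in the activated culture, a log2 ratio of 1.17. Mrps18c measured 13.5 and 34.7 CPM, a log2 ratio of 0.93, and both genes had activated gates above all quiescent gates. Mrps18a, whose product sits in the large subunit, measured 31.4, 27.2, 32 and 27.4 CPM in the 4 cultures, with overlapping gates and a log2 ratio of -0.14.

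Of the other members with high ratios, Mrpl38 measured 27.6 CPM in the quiescent and 69.8 in the activated culture, a log2 ratio of 1.09. Mrpl18 measured 71.9 and 155 CPM, a log2 ratio of 1.01, and Mrps30 measured 13.9 and 36.1, a log2 ratio of 0.95. In all 3 the gates of the 2 cultures did not overlap. The start of Mrpl18 faces that of Tcp1, a chaperonin gene, at 644 bases, exons of the 2 genes overlap on opposite strands, and Tcp1 measured 71.9 and 181 CPM.

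The 7 members with lower levels in the activated culture were Mrpl10, Mrps33, Mrps18a, Mrpl27, Mrps21, Mrps26 and Mrps34, named here by that direction. Mrps33 measured 77.3 CPM (69.6 to 85.5) in the quiescent and 64.6 (58.6 to 71.1) in the activated culture, with overlapping gates. Mrpl27, the homolog of a protein at the bacterial peptidyl transferase centre, measured 44.4 and 42.5 CPM. Mrps21 measured 87.7 and 84.9 CPM, Mrps26 26.8 and 26.4, and Mrps34 32.4 and 32.3. Among the 38 members outside the naming rule, Mrps34 included, log2 ratios ran from -0.00 (Mrps34) to 1.05 (Mrpl39), with a median of 0.56.

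**Figure D2:**
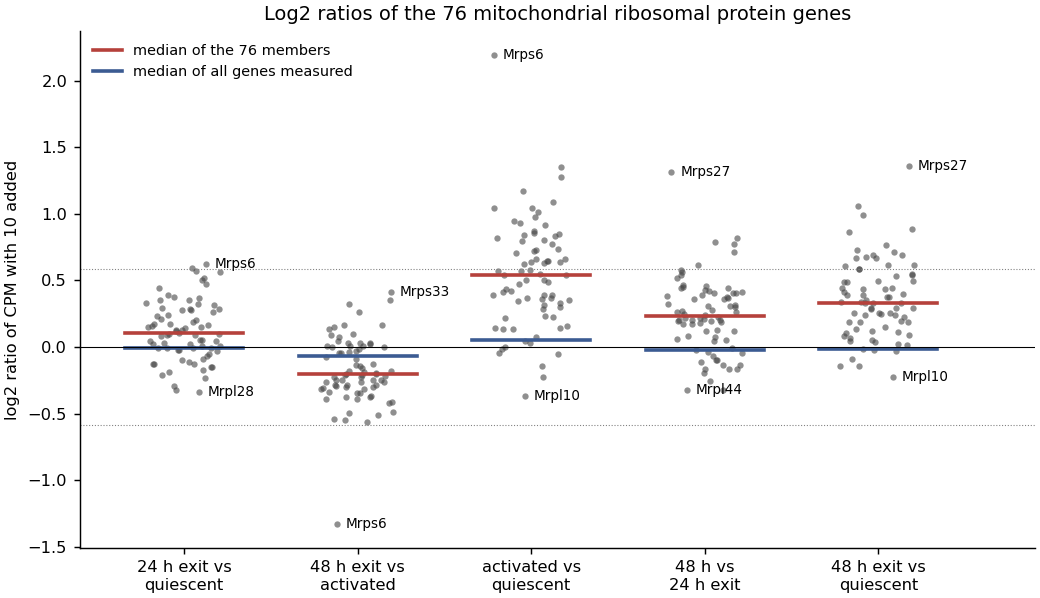
Log2 ratio of CPM with 10 added (vertical axis) for each of the 76 genes (grey points, spread sideways at random) in 5 comparisons of cultures, with the highest and lowest gene named, the medians of the 76 genes and of all measured genes as red and blue lines, and 1.5-fold as dotted lines. The red line lies at 0.54 for activated against quiescent and at -0.21 for 48 h exit against activated, and Mrps6 stands apart from the other points in both.

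At 24 h of exit, compared with the quiescent culture on the same plate, 52 of the 76 genes were higher, against 48.4% of all genes. Only 2 were called past 1.5-fold higher (2.63%), against 4.11% of all genes, and 0 lower, against 5.68%. The median log2 ratio was 0.10, with -0.01 for all genes. With mitochondrially encoded and cytosolic ribosomal protein genes left out of the totals, 60 were higher and 16 lower, and 53.7% of all genes were higher. Per spike-in count the summed level was lower at 24 h, by 0.27 on the log2 scale, so the direction of the sum depends on the scale.

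The 2 called genes were Mrps6, described above, and Mrps35, a small-subunit protein. Mrps35 measured 19.9 CPM (16.1 to 24.3) in the quiescent and 35.1 (28.8 to 42.4) in the 24 h exit culture, a log2 ratio of 0.59. The 24 h gates, from 26.4 to 43.7 CPM, lay above the quiescent gates, from 15.8 to 24.4, and the level stayed near 37.6 and 34.6 CPM at 48 h and in the activated culture. Gates did not overlap in 7 members higher at 24 h, against 7.41% of all genes, and in 1 lower, against 9.41%.

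Among these 7 were Mrpl42, Mrps36, Mrpl55 and Mrps31. Mrpl42, a large-subunit protein without a bacterial homolog, measured 123 CPM (113 to 133) in the quiescent and 188 (173 to 204) in the 24 h culture. It reached 255 (239 to 270) at 48 h, above the 201 (190 to 212) of the activated culture. Mrps36, outside the ribosome, had its highest level at 24 h: 55.9, 87.3, 67.9 and 70.4 CPM in the quiescent, 24 h, 48 h and activated cultures. Mrpl55 likewise measured 21.8, 35.5, 30.5 and 30.5 CPM, and Mrps31 measured 19.5, 30.2, 25.2 and 41.3.

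At the other end was Mrpl28, with 36.3 CPM (31.2 to 42.1) in the quiescent and 26.6 (21.1 to 33) in the 24 h culture and gates that did not overlap. Mrps12, a protein of the decoding centre, measured 36.6 CPM in the quiescent and 27.2 in the 24 h culture, with overlapping gates and log2 ratio -0.32. Mrpl40 measured 42.6 and 32.8 CPM and Mrpl49 26.2 and 21.3, again with overlapping gates. Mrpl44, a protein with a ribonuclease III fold and the fewest counts, measured 11.8 CPM (8.96 to 15.3) and 16.7 (12.5 to 22), which was not distinguishable at this depth.

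At 48 h of exit, compared with the activated culture on the same plate, 21 of the 76 genes were higher and 55 lower. Over all genes 40% were higher. Past 1.5-fold, 0 were called higher, against 3.72% of all genes, and 1 lower (1.32%), against 7.42%. The median log2 ratio was -0.21, with -0.07 for all genes. With mitochondrially encoded and cytosolic ribosomal protein genes left out of the totals, 29 members were higher and 47 lower, 51.5% of all genes were higher, and the summed log2 ratio was -0.10 in place of -0.24. In the low gate alone that sum was -0.13, and without Mrps6 it was -0.16.

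The called gene was Mrps6, with a log2 ratio of -1.33 and 48 h gates (175 to 203 CPM) below the activated gates (398 to 594). Gates did not overlap in 19 members lower at 48 h, against 14.2% of all genes. Mrps18b measured 26.4 CPM (21.7 to 31.9) at 48 h and 43.9 (39 to 49.3) in the activated culture, Mrps30 21.6 and 36.1, Mrpl37 54.1 and 81.4, and Mrpl17 115 and 165. Mrps31 measured 25.2 and 41.3 CPM. In these 5 genes every 48 h gate lay below every activated gate.

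Gates did not overlap in 2 members higher at 48 h, against 8.41% of all genes. They were Mrpl42, described above, and Mrps33, with 89.2 CPM (80.3 to 98.8) at 48 h and 64.6 (58.6 to 71.1) in the activated culture. Mrpl51 measured 138 and 106 CPM, Mrps26 33.7 and 26.4, and Mrps11 32.2 and 27.6, with overlapping gates.

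**Figure D3:**
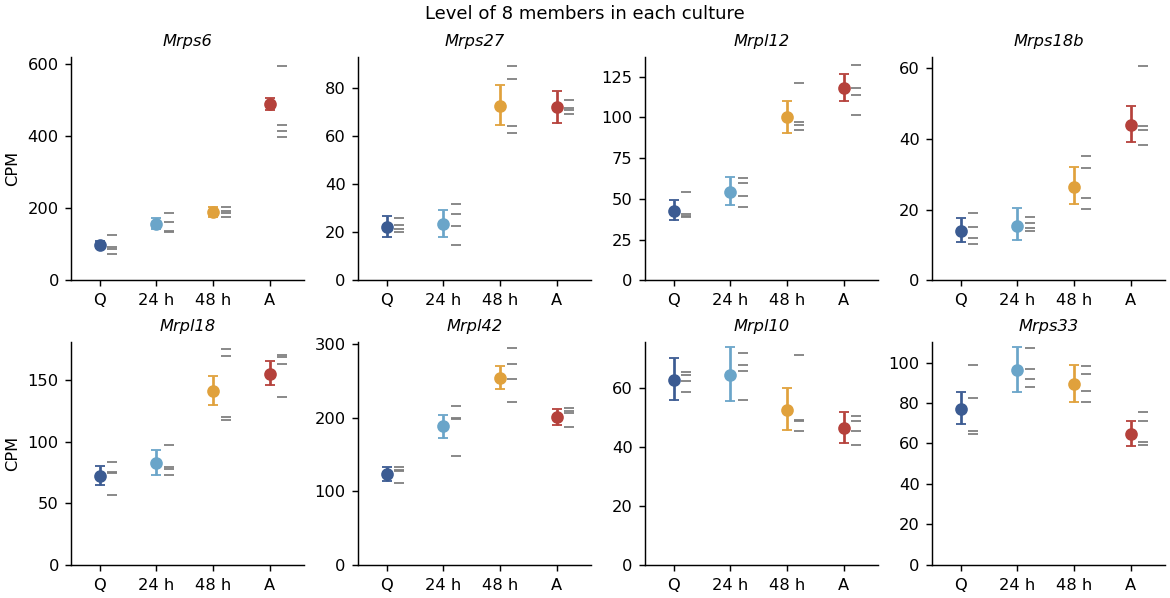
CPM of 8 members (vertical axes, each from 0) in the quiescent (Q), 24 h exit, 48 h exit and activated (A) cultures, with 95% Poisson intervals as bars and the 4 gates of each culture as grey ticks. Mrps6 reaches 489 CPM in the activated culture, Mrps27 lies near 22 and 23 CPM on one plate and near 73 and 72 on the other, and Mrpl42 is highest at 48 h.

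Between the exit cultures, which were on different plates, 59 of the 76 genes were higher at 48 h than at 24 h, against 47.3% of all genes. Past 1.5-fold, 6 were called higher (7.89%), against 10.4% of all genes, and 0 lower, against 8.86%. The median was 0.24, with -0.02 for all genes. The 6 were Mrps27, Mrpl38, Mrpl28, Mrpl12, Mrpl18 and Mrpl22, all but Mrps27 in the large subunit. Mrpl28 measured 26.6 CPM (21.1 to 33) at 24 h and 53.1 (46.3 to 60.6) at 48 h, and Mrpl38 22 and 46.6, with gates that did not overlap. The lowest log2 ratios were those of Mrpl44 and Mrps36, both -0.32, with overlapping gates.

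Between 48 h of exit and quiescence, also on different plates, 69 of 76 were higher, against 48.7% of all genes. Past 1.5-fold, 18 were called higher (23.7%), against 11%, and 0 lower, against 10.7%. Gates did not overlap in 30 members higher at 48 h, against 15.5%, and in 0 lower, against 17.5%. All 26 small-subunit genes were higher at 48 h, as were 42 of the 49 large-subunit genes. The lowest log2 ratios were those of Mrpl10 (-0.22), Mrpl24 (-0.14) and Mrpl41 (-0.14). The 5 comparisons share cultures, so their counts are not independent. Levels were in the order quiescent, 24 h, 48 h, activated in 29 of the 76 genes (38.2%), against 10.7% of all genes.

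The subunits differed little once Mrps6 was set aside. Summed large-subunit counts per small-subunit count were 2.14, 1.96, 2.10 and 1.83 in the quiescent, 24 h, 48 h and activated cultures, and 2.40, 2.28, 2.45 and 2.55 without Mrps6. In the activated over quiescent comparison the median log2 ratio was 0.50 for the large subunit (46 of 49 higher, 21 or 42.9% past 1.5-fold). It was 0.56 for the small subunit (22 of 26 higher, 12 or 46.2% past 1.5-fold). Over all genes 54.4% were higher and 18.9% past 1.5-fold higher. At 24 h against quiescent the medians were 0.09 and 0.20.

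By descent, 46 subunits were listed as having a bacterial homolog. Of the Mrps18 genes only Mrps18c was in that list, and Mrps18a and Mrps18b were counted among the other 29. The 46 had a median of 0.54 in activated over quiescent (43 or 93.5% higher). The other 29 had 0.50 (25 or 86.2% higher), and 54.4% of all genes were higher. At 24 h over quiescent 37 of the 46 (80.4%) and 14 of the other 29 (48.3%) were higher, against 48.4% of all genes. The medians were 0.12 and -0.01, with -0.01 for all genes. No test compared these groups.

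A further 7 mitoribosome subunits carry other names and lie outside the name rule. All 7 were higher in the activated than in the quiescent culture, against 54.4% of all genes, with a median log2 ratio of 1.01. Past 1.5-fold were 5 (71.4%), against 18.9% of all genes. Ptcd3, a pentatricopeptide repeat protein of the small subunit, measured 36.8, 51.9, 75.2 and 106 CPM in the quiescent, 24 h, 48 h and activated cultures. Ict1, a ribosome-bound peptidyl-tRNA hydrolase, measured 29.5, 36.4, 55.8 and 82. Gadd45gip1 measured 26.2, 19.7, 41.2 and 62.8, and Chchd1 32.8, 36.4, 58.7 and 77.1. Dap3, a GTP-binding protein of the small subunit, measured 41.1, 41.4, 47.5 and 66.8, Aurkaip1 93.7, 117, 128 and 135, and Mrp63 31.2, 29.5, 39.5 and 47.4. At 48 h of exit all 7 were below the activated culture, against 59.8% of all genes, with a median of -0.42.

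Mitoribosomal proteins enter mitochondria through import proteins. The list of mitochondrial import and chaperone genes was broader than that route, with Lonp1, Clpp, Phb and Phb2 also in it. Genes of this list were higher in the activated than in the quiescent culture in 28 of 28 (median 0.64, 18 or 64.3% past 1.5-fold). Over all genes 54.4% were higher and 18.9% past 1.5-fold higher. The mitochondrial chaperonins Hspe1 and Hspd1 measured 257 and 133 CPM in the quiescent culture and 658 and 392 in the activated one. Assembly factors of the mitoribosome were higher in 21 of 26 (median 0.23, 4 or 15.4% past 1.5-fold, against 18.9% of all genes), with C1qbp at 61.3 and 187 CPM and Malsu1 at 31.2 and 35.8. Genes listed as translation factors, Mtfmt and Mpv17l2 among them, were higher in 10 of 14 (median 0.22, 2 or 14.3% past 1.5-fold). Tufm, the mitochondrial elongation factor Tu, measured 41.1 and 68 CPM, and Gfm1, an elongation factor G, 37.6 and 57.3. Mitochondrial tRNA synthetases were higher in 14 of 17 (median 0.28, 3 or 17.6% past 1.5-fold), and genes of mitochondrial transcription and RNA processing in 17 of 20 (median 0.50, 7 or 35% past 1.5-fold), with Lrpprc at 69 and 111 CPM and Slirp at 48.6 and 93.1.

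Cytosolic ribosomal protein genes had the larger difference, with 78 of 78 higher in the activated culture and a median of 1.26. Past 1.5-fold were 73 (93.6%), against 18.9% of all genes. At 24 h of exit 68 of 78 (87.2%) were lower than in the quiescent culture, against 51.4% of all genes. Their median was -0.16, where the members had 0.10. Cytosolic counts per member count were 8.62, 6.71, 9.67 and 13 in the quiescent, 24 h, 48 h and activated cultures. Near-identical copies and pseudogenes make single cytosolic ribosomal protein values uncertain.

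Nuclear oxidative phosphorylation genes, whose products work together with those that mitoribosomes make, had another pattern. In activated over quiescent 40 of 75 were higher (53.3%, against 54.4% of all genes), with a median of 0.03. Past 1.5-fold, 3 were higher (4%, against 18.9%) and 4 lower (5.33%, against 13.6%). At 24 h over quiescent, as shares of counts, 69 of 75 were higher (92%, against 48.4%), with a median of 0.29. Member counts per oxidative phosphorylation count were 0.161, 0.148, 0.184 and 0.258. The 13 mitochondrially encoded mRNAs, the templates of the mitoribosome, summed to 16%, 18.5%, 19.7% and 13.8% of counts. In activated over quiescent 2 of 13 were higher (15.4%, against 54.4% of all genes) and 11 lower, with a median of -0.21. As shares of counts, transcripts for the ribosome's proteins were thus higher and its templates lower. Shares depend on the total: counts of all genes per spike-in count had medians of 73.3 in quiescent and 118 in activated cells. Summed members differed 1.67-fold as a share and 2.58-fold per spike-in count, and summed templates 0.859-fold as a share. Spike-in scaling changes every sum of a culture by the same factor, so the templates' lower value holds as a share of counts only.

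**Figure D4:**
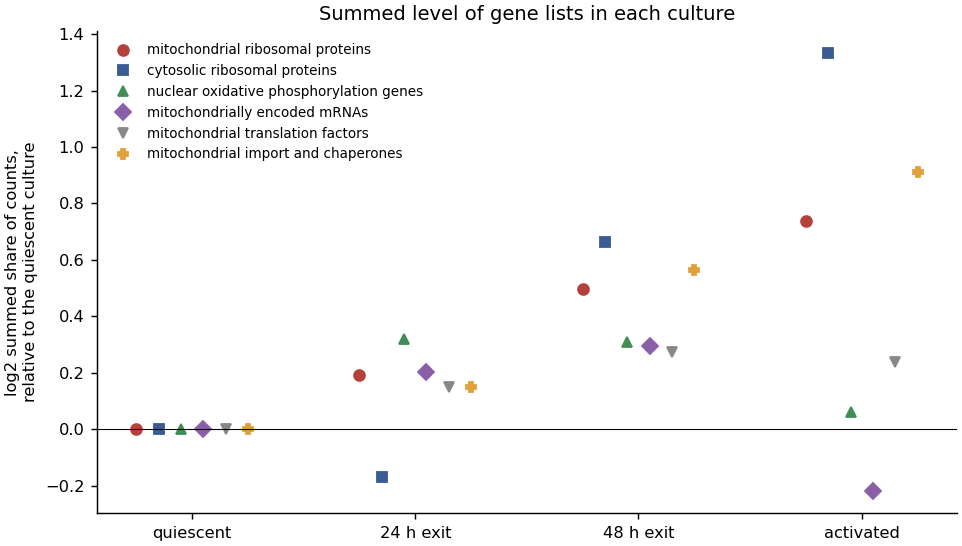
Log2 of the summed share of counts of 6 gene lists relative to the quiescent culture (vertical axis) in the 4 cultures (horizontal axis, with lists side by side). In the activated culture cytosolic ribosomal proteins lie at 1.33 and mitochondrial ribosomal proteins at 0.74, while mitochondrially encoded mRNAs lie at -0.22.

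Among factors tied to mitochondrial biogenesis, Ppargc1a, the coactivator PGC-1 alpha, measured 143, 287, 130 and 43 CPM in the quiescent, 24 h, 48 h and activated cultures, an order unlike that of the members. Yy1 measured 51.3, 61.7, 55.5 and 92.2 CPM. Nrf1 measured 18.5, 17.7, 25.2 and 27.4 CPM and Gabpa 26.0, 26.9, 24.2 and 26.2. Of the 9 factors measured, 7 were higher in the activated than in the quiescent culture (77.8%, against 54.4% of all genes), with a median log2 ratio of 0.35. Myc had the largest ratio, 1.01, at 7.06 CPM in the quiescent and 24.4 in the activated culture, and Pprc1 had 0.69. The 2 lower factors were Ppargc1a, at -1.53, and Esrra, at -0.67.

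Within cultures, cells of the high autofluorescence gate had a lower share of member transcripts than cells of the low gate. The share was 0.324% in the low and 0.300% in the high quiescent gate, 0.380% and 0.335% at 24 h, 0.479% and 0.387% at 48 h, and 0.523% and 0.485% in the activated culture. In the quiescent and 24 h cultures the mid-high gate was the lowest, at 0.282% and 0.314%. The summed log2 ratios of high over low were -0.11, -0.18, -0.31 and -0.11. In the quiescent culture 51 of 76 members were lower in the high gate (67.1%), against 68.7% of all genes, and the median log2 ratio was -0.10 against -0.15, so the members did not lie below the background there. The counts were 50 (65.8%) against 52.4% at 24 h, 64 (84.2%) against 61.7% at 48 h, and 54 (71.1%) against 52% in the activated culture. Other properties moved with the gate. Median transcripts a cell were 18910 and 40452 in the low and high quiescent gates, 14234 and 23480 at 24 h, 20340 and 33588 at 48 h, and 25566 and 55395 in activated cells. At 48 h the share of cells that the authors assigned to G0 was 0% in the low and 32.5% in the high gate, and cytosolic ribosomal proteins made up 5.28% and 3.26% of counts. Their part in the result was not tested.

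Gene by gene, high and low gates were compared with edgeR's quasi-likelihood test on 8 sums, 1 per gate and culture, with culture as a block. The 4 cultures are of 4 states, so the test seeks a change common to them. Of 7792 genes tested, all 76 members among them, 165 (2.12%) were called higher and 58 (0.744%) lower in the high gate at an adjusted p of 0.05. Without the 48 h exit culture 19 genes were called in place of 223. Among the members, 1 was called higher and 0 lower. Fitted log2 ratios were below 0 in 45 of the 76 members, with a median of -0.06, against -0.01 over all genes tested. At an unadjusted p of 0.05, 3 members were lower (3.95%), against 7.73% of all genes, and DESeq2 called 0. Lower in the high gate in all 4 cultures were 9 members (11.8%), against 11.5% of all genes. Higher in all 4 were 2, but the share over all genes was not counted in that direction, so this number has no background.

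Mrps6 was the called gene, in the direction opposite to the sum. It measured 88 CPM in the low and 125 in the high quiescent gate, 138 and 187 at 24 h, 191 and 186 at 48 h, and 398 and 594 in the activated culture. The fitted log2 ratio was 0.52 (SE 0.13, edgeR adjusted p = 0.0350), and relative to normalised library sizes it was higher in 4 of 4 cultures. DESeq2 gave an adjusted p of 0.0627, and the edgeR adjusted p was 0.0959 without the quiescent culture, 0.0958 without the 48 h exit culture, 0.155 without the activated culture and 1.00 without the culture block.

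The members next in order of p were Mrpl53, Mrps15, Mrpl19, Mrpl35 and Mrps14, all with lower fitted values in the high gate. None passed the adjusted threshold. Mrpl53 had a fitted log2 ratio of -0.45 (SE 0.16, edgeR adjusted p = 0.133) and was lower in 4 of 4 cultures. Mrps15, a small-subunit protein with a bacterial homolog, had -0.41 (SE 0.16, edgeR adjusted p = 0.184), also lower in 4 of 4. Annotated exons of Mrpl53 overlap those of a predicted gene on the same strand.

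**Figure D5:**
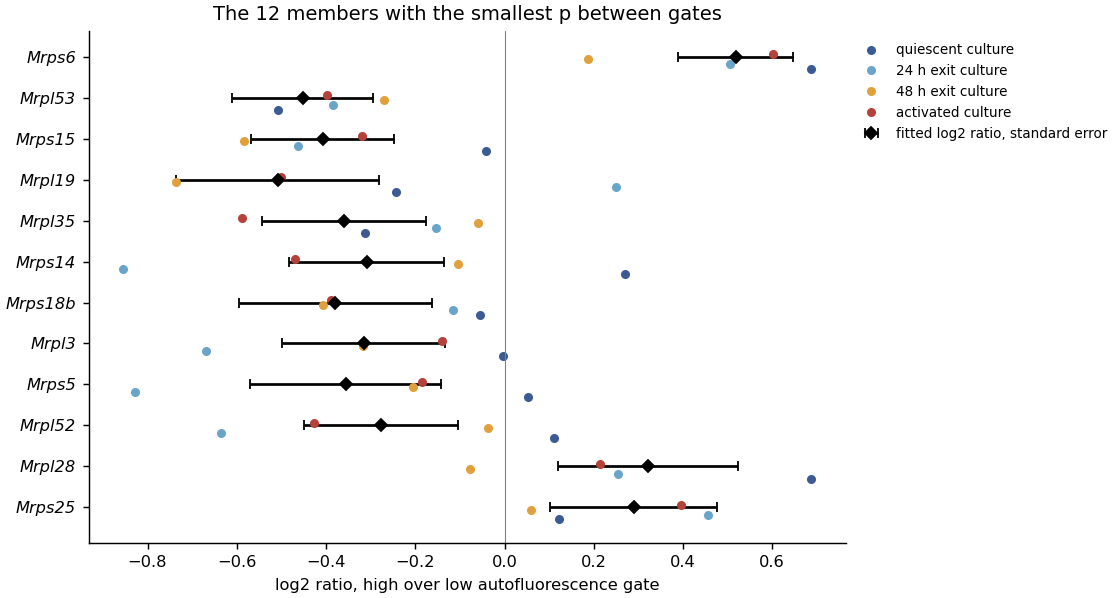
Log2 ratio of the high over the low autofluorescence gate (horizontal axis) for the 12 members with the smallest p, as the edgeR value with its standard error (black diamonds) and as each culture's own value (coloured points). Mrps6 lies at 0.52 with all 4 cultures above 0, and Mrpl53 at -0.45 with all 4 below 0.

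The authors' clusters and phases were set from the expression of these cells, so levels in them are a description. Cluster 1 held 166 of the 174 quiescent cells, cluster 2 held 163 of the 164 activated cells, and cluster 0 held 145 of the 151 24 h exit cells. The 48 h exit cells were split, with 41 in cluster 0 and 109 in cluster 3. In the 41 cells members made up 0.390% of counts (0.378 to 0.402), and in the 109 cells 0.434% (0.427 to 0.442). Of the 76 genes, 58 (76.3%) were higher in cluster 3, against 59.2% of all genes, with a median log2 ratio of 0.11, where all genes had 0.08. Past 1.5-fold, 5 members were higher in cluster 3 (6.58%), against 11.2% of all genes. Mrps6 went the other way, with 229 CPM in cluster 0 and 175 in cluster 3, as did Mrpl11, with 35.6 and 19.1.

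By phase, the 22 G0 cells at 48 h had 0.355% of counts in members (0.339 to 0.371), below the 0.444%, 0.436% and 0.427% of G1, S and G2M cells. In the activated culture G1, S and G2M cells had 0.483%, 0.510% and 0.500%. Quiescent cells, of which 146 were called G0, had 0.294% in G0 and 0.340% in 12 G1 cells.

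Across single cells thinned to 12488 identifiers, the member share followed that of cytosolic ribosomal proteins, with Spearman's rho of 0.38, 0.55, 0.54 and 0.26 over 156 quiescent, 122 24 h, 140 48 h and 158 activated cells. With nuclear oxidative phosphorylation genes rho was 0.43, 0.52, 0.48 and 0.23, and with mitochondrially encoded mRNAs -0.11, -0.36, -0.31 and 0.00. Large-subunit against small-subunit counts gave 0.18, 0.17, 0.32 and 0.27. Cells of a culture share a plate and a library, and shares of 1 total depend on each other, so these values are descriptions.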

How the data were processed

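Cells were sorted singly, lysed by heat and pooled by plate for in vitro transcription and CEL-Seq2 libraries, per the labels' protocols. The submitters' processing notes list BWA 0.7.15, Seurat 4.1.1 and R 4.2.0, and give mm10 and hg19 as builds with no role for either. The annotation is not given in the sources used here. The deposited values are expected counts: 3′ transcript identifiers per gene and well, corrected for molecules that share 1 of 4096 identifiers. A CPM is thus per transcript molecule and needs no length correction. The table of single cells deposited by the authors holds, per the file headers, phase, cluster, condition, gate, a percent of mitochondrial counts and sorter intensity; the last 2 are not reported. The authors' filter on cells is not stated. Wells outside that table were left out, and no doublet caller was run on singly sorted cells.

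Counts were summed per culture, with exact Poisson and conditional binomial 95% intervals, and log2 ratios of CPM were taken with 10 CPM added over 11559 genes with 20 counts or more. With 1 culture per state there was no test between states. Low and high gates were compared with edgeR 4.0.16 in R 4.3.3 (rounded sums, TMM, filterByExpr, quasi-likelihood, culture block, Benjamini-Hochberg at 0.05, 3 residual degrees of freedom), and with DESeq2 1.42.0 as an alternative. On simulated data for the gate comparison over 7792 genes, 41.8%, 74.6% and 97.0% of genes changed 1.5-, 2- and 4-fold were recovered, with 7 false calls. Every simulated gene had the same dispersion, and a changed gene had the same fold in every culture. These rates therefore need not hold for the measured genes. Sums and figures were made in Python 3.11.15 with matplotlib 3.10.9, scipy 1.17.1, pandas 2.3.3 and numpy 2.4.6. Promoters are from RefSeq (GRCm38.p6), gene positions from GENCODE (GRCm38).

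The members, the lists and the rules were chosen with earlier results of these data known. Members named were the 5 with the highest CPM, the 5 highest and 5 lowest log2 ratios of each comparison among members with 100 counts or more, the 6 smallest p between gates, and Mrpl12, Mrps12, Mrpl11, Mrpl44, Mrps18a, Mrps18b, Mrps18c, Mrps30 and Mrps36. Alternatives were other totals, spike-ins, equal depth, deeper cells, single gates, whole identifiers, other pseudocounts and filters, other fits and left-out cultures.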

Additional observations from a re-analysis of the deposited data

Results flagged for a closer look

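Wells outside the per-cell table have no condition or gate, and member transcripts were present in them. The 59 such wells of the plate with quiescent and 24 h exit cells held 2217 member CPM (95% Poisson interval 1975 to 2481), with a count in 41 wells and a median total of 641 transcripts. The 69 such wells of the plate with activated and 48 h exit cells held 3013 member CPM (2744 to 3301), with a count in 39 wells and a median total of 192. Both values are well above 0, and no control wells were available to set them against. In 38 groups of 4 values examined, none held a value far from the other 3.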

How the results depend on the processing

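Summed log2 ratios kept their sign under every alternative run except 1: per spike-in count, 24 h exit against quiescent was -0.27 in place of 0.19. On that scale the other sums were -0.68 for 48 h exit against activated, 1.37 for activated against quiescent, 0.96 for 48 h against 24 h exit and 0.69 for 48 h exit against quiescent. With mitochondrially encoded and cytosolic ribosomal protein genes left out of the totals, sums were 0.26 for 24 h exit against quiescent (6 members past 1.5-fold in either direction, 7.89%, against 11.8% of all genes), -0.10 for 48 h exit against activated, 0.38 for 48 h against 24 h exit (10 members, 13.2%, against 22.8%) and 0.64 for 48 h exit against quiescent (28 members, 36.8%, against 26.1%). Without Mrps6, an alternative chosen after seeing the data, sums were -0.16 for 48 h exit against activated and 0.64 for activated against quiescent. Single gates hold fewer counts. From low to high gate, 24 h exit against quiescent gave 0.23 (19 members) in the low, 0.24 (13) in the low-mid and 1 member in the mid-high gate, which is 25%, 17.1% and 1.32% of members, against 23.7%, 17.2% and 18.6% of all genes. For 48 h exit against activated, the gates gave -0.13, -0.21, -0.29 and -0.33 with 5, 8, 13 and 7 members (6.58%, 10.5%, 17.1% and 9.21%, against 16.8%, 18%, 20% and 17.3%). Activated against quiescent gave 0.69 in the low, 0.85 in the mid-high and 0.69 in the high gate. For 48 h against 24 h exit, 19, 14 and 16 members passed in the low, low-mid and mid-high gates (25%, 18.4% and 21.1%, against 28.2%, 26.7% and 29.3%), with sums of 0.40 in the mid-high and 0.21 in the high gate. Sums for 48 h exit against quiescent were 0.57 (28 members, 36.8%, against 32%) and 0.54 (29, 38.2%, against 30.8%) in the low and low-mid gates. They were 0.56 (22, 28.9%, against 27.5%) and 0.37 (13, 17.1%, against 21.5%) in the mid-high and high gates. In that comparison cells above the median total gave 15 (19.7%, against 22%), and totals without Rn45s 16 (21.1%, against 22.4%). Equal depth gave 20 there (26.3%, against 24.3%). With 1 CPM added in place of 10, 8, 5 and 12 members passed for 24 h exit against quiescent, 48 h exit against activated and 48 h against 24 h exit (10.5%, 6.58% and 15.8%, against 24.6%, 26.7% and 38.3%). Whole identifier counts gave 1 member at 24 h exit against quiescent (1.32%, against 10.1%). For 48 h exit against activated, leaving Rn45s, the ribosomal RNA precursor, out of the totals gave 2 members (2.63%, against 11.7%). Equal depth gave 2 (against 13.5% of all genes) and a sum of -0.21. Cells above the median total gave 3 (3.95%, against 12.5%), and 14 for 48 h against 24 h exit (18.4%, against 22.6%). The cause of these shifts was not tested. Between gates, edgeR called 0 to 1 members with a culture left out (0 without the quiescent, 48 h exit or activated culture), 0 without the culture block and DESeq2 called 0; DESeq2 gave no adjusted p for 58 members. Over all genes edgeR called 223, with 183, 144, 127 and 19 without the 24 h exit, quiescent, activated and 48 h exit cultures, 0 without the block, 414 without a filter and 633 over 4 gates in order, and DESeq2 called 111. The gate comparison is paired within cultures by that block. Between states, no paired analysis was possible because each state is 1 culture and the labels give no shared replicate numbers. Counting error limits single genes, and 1 culture per state limits every comparison between states.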
